A study of Arabis alpina with 18 samples.

Results

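Messenger RNA of dissected shoot apices of Arabis alpina was compared between eop055 mutants (3 libraries) and pep1-1 mutants (3 libraries) at 5 weeks of age. These are the 6 of 18 libraries in the series that the labels give to this organ and age. All plants were of the accession Pajares and grew in long days. The other 12 libraries, used here for the spread per gene and for setting the 5-week difference beside others, come from apices at 3 weeks and from leaves at 5 weeks of both mutants, 3 libraries each. The sources used here do not give the lesion of eop055 or say whether eop055 plants also carry pep1-1. Nor do the labels say whether a library holds 1 plant or a pool, and the p-values below rest on the spread between libraries, which may be partly technical.

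Arabis alpina is a perennial relative of Arabidopsis. Its PEP1 gene is the ortholog of the floral repressor FLC and holds back flowering until a long cold period, and the series concerns the ortholog of TOE2, an AP2-like repressor of flowering known in Arabidopsis as a target of miR172. In Arabidopsis the floral transition at the apex begins with SPL factors of the age pathway and with the bZIP protein FD, which works with the florigen FT. These act upstream of LFY and AP1, which give a primordium its floral identity, and the MADS-box genes AP3, PI, SEP and their relatives then specify the floral organs. The roles named below are those known from Arabidopsis.

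The 5-week apex libraries held 7987096 to 13131278 gene counts. On the first principal component of these 6 libraries, with 54.5% of the variance, the eop055 libraries lay between 25.3 and 29.0 and the pep1-1 libraries between -30.1 and -23.2. Levels are given in CPM, the counts of a gene brought to a common library size by TMM scaling. They are not divided by gene length, so they compare libraries and not genes. A gene was called when its p, adjusted by Benjamini-Hochberg over all genes, was under 0.05 in the quasi-likelihood F test of edgeR, and every adjusted p below is of that kind unless DESeq2 is named. Of 21275 genes tested, 3077 (14.5%) were called, 1524 higher (7.16%) and 1553 lower (7.3%) in eop055. Without pep1-1 replicate 3, 1006 genes were called higher and 1191 lower. Of the calls, 385 of the higher and 332 of the lower genes differed at least 2-fold, and 111 and 71 at least 4-fold. The 3 eop055 libraries lay wholly above the 3 pep1-1 libraries for 1481 of the genes called higher and wholly below for 1492 of those called lower. Over all genes tested the groups did not overlap for 6483 (30.5%).

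**Figure D1:**
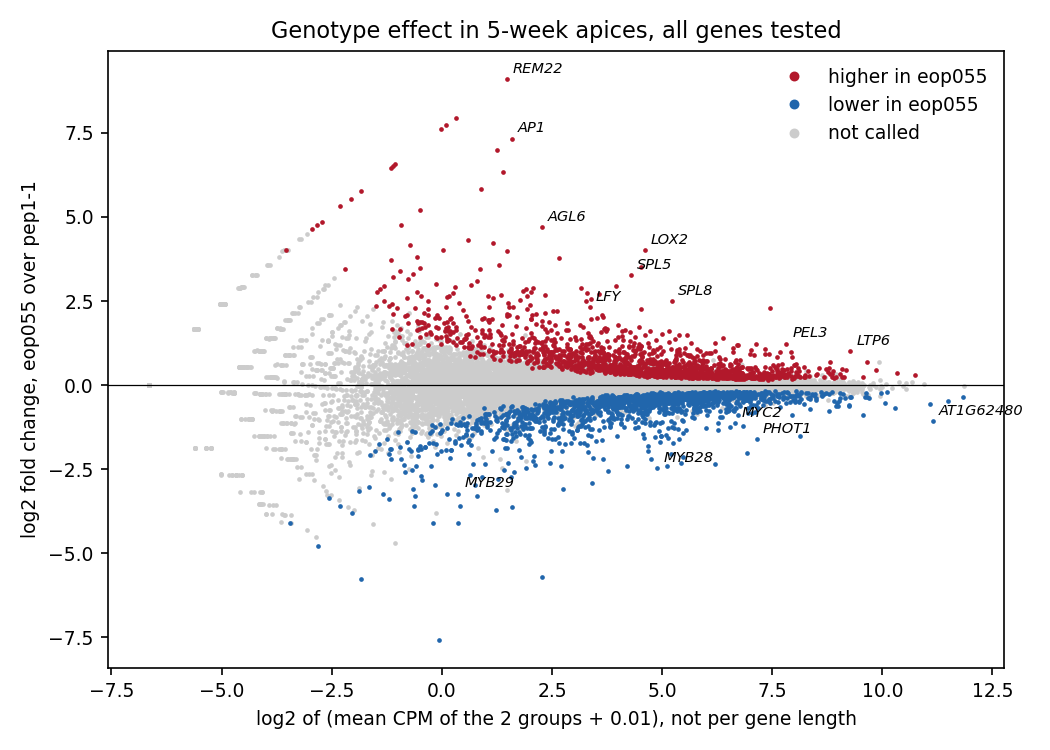
Log2 fold change of eop055 over pep1-1 in 5-week apices against the log2 of the mean CPM of both groups, 1 point per gene for 21275 genes; red marks the 1524 called higher in eop055, blue the 1553 called lower and grey the rest. AP1 and REM22, near 0 in pep1-1, stand at the top, while LTP6 (2.01-fold higher) and AT1G62480 (2.10-fold lower) lie at the right.

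Arabidopsis names were available only for genes on the authors' deposited lists of changed genes from this series, 1381 of them tested. Of these, 438 stand on the authors' lists for these same 6 libraries, and 382 are named through those lists alone. Among named genes 270 (19.6%) were called higher and 215 (15.6%) lower, and of the 943 named only through 3-week apices or leaves, 40 and 26. The number of named members that moved in a group below is therefore in large part set by how names were given, and it is not independent evidence of a direction. TOE2 and PEP1 carry no name here, so the genotypes were not checked at a targeted gene. The 1 named vascular marker was not called. No locus on the short marker lists for cell division, leaf and photosynthesis, or anthers and ovules carried a name (0 of 8, 0 of 4 and 0 of 7). Genes with such roles outside these lists did carry names. Among them RNR2A, EMS1 and AGO9 were called higher.

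Genes that promote flowering or mark the floral meristem were higher in eop055 apices, and AP1 and LFY were among them. Of the 26 loci in this list 8 carried a name, all of them on the lists for these same libraries, and 8 of 8 rose (background 7.16% of all genes tested and 19.6% of named genes). Their median log2 fold change was 2.60, against 2.22e-05 over all genes tested and -0.03 over named genes. Among the SPL genes, transcription factors of the age pathway that miR156 holds back, SPL5 (Aa_G1050h1) had 30.8, 28.2 and 47.8 CPM in the eop055 libraries, against 3.75, 5.25 and 2.10 CPM in the pep1-1 libraries. All eop055 libraries were above all pep1-1 libraries, by 9.69-fold on average (log2 3.28 ± 0.24 SE, adjusted p 1.54e-08). SPL4, its close relative, had 5.08, 5.44 and 9.53 CPM in eop055, against 1.21, 0.495 and 0.875 CPM in pep1-1, again without overlap. SPL9 (Aa_G230760h1), which acts earlier in the age pathway, had 73.3, 74.4 and 84.8 CPM in eop055, against 37.8, 41.2 and 36.7 CPM in pep1-1. SPL10, also a target of miR156, rose with it (log2 1.08 ± 0.14 SE, adjusted p 5.9e-06), and the fold change of SPL9 was 1.01 ± 0.11 (adjusted p 1.2e-06). Thus SPL4 and SPL5 had the larger folds of these 4, and SPL9 and SPL10 stood near 2-fold.

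FD (Aa_G514710h1) had 23.7, 21.3 and 29.3 CPM in the eop055 libraries, against 10.8, 10.2 and 8.22 CPM in the pep1-1 libraries, 2.53-fold higher with no overlap (adjusted p 2.07e-06). AGL71, a MADS-box gene close to the flowering promoter SOC1, had 3.77, 2.87 and 6.97 CPM in eop055, against 0.445, 0.396 and 0.262 CPM in pep1-1. LFY (Aa_G61540h1) was detected in all 6 libraries, with 13.7, 12.8 and 24.6 CPM in eop055, against 3.56, 3.27 and 3.32 CPM in pep1-1. The pep1-1 libraries were nearly equal for LFY, and eop055 replicate 3 stood apart from the other two (5.01-fold higher on average, adjusted p 4.35e-06). AP1, which LFY switches on in Arabidopsis, had 5.56, 3.00 and 9.33 CPM in eop055, against 0, 0.0990 and 0 CPM in pep1-1. These are 272 reads in eop055 and a single one in pep1-1. Scaled by library size they stand 220 to 1 (exact 95% interval for counting error 39.1 to 8706). That figure was 127 when pep1-1 replicate 1 was dropped and a lower bound of 53.4 when pep1-1 replicate 2, the library with the read, was dropped.

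The floral repression list had 2 named members, TEM1 and TEM2, which hold back FT in Arabidopsis. Neither passed edgeR's test (0 of 2 called, 1 of 2 at an unadjusted p under 0.05). TEM1 had 5.90, 5.81 and 5.65 CPM in eop055, against 9.54, 11.6 and 7.79 CPM in pep1-1 (log2 -0.73 ± 0.27 SE, adjusted p 0.0856), and was not called. Its groups did not overlap, which held for 30.5% of all genes tested. TEM2 had 3.50, 4.10 and 2.43 CPM in eop055, against 3.24, 6.63 and 3.59 CPM in pep1-1, and overlapped. DESeq2 called 1 of the 2 lower, as did edgeR with only the 2 groups, with only the apices or with a replicate block in the fit. The MADS-box gene AGL15, outside that list and named after its values were seen, was called lower. It had 1.37, 0.673 and 1.45 CPM in eop055, against 4.83, 3.96 and 3.85 CPM in pep1-1 (log2 -1.87 ± 0.30 SE, adjusted p 0.000101).

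Genes that specify or shape floral organs were higher in eop055 as well, several of them from levels near 0 in pep1-1. Of 30 loci 10 carried a name and 9 were tested, 8 of them present on the lists for these libraries. All 8 of those rose and the other one, the style gene NGA1, was not called (log2 0.60 ± 0.29 SE, adjusted p 0.179). The fitted median log2 fold change over the 9 was 4.69, or 4.58 with the 2 genes at 0 counts in pep1-1 set to the bounds given below. The 3 eop055 libraries summed to 97.0, 90.7 and 124.3 CPM over the 10 genes, against 16.0, 16.7 and 14.0 CPM for the pep1-1 libraries. SPL8 makes up more than any other gene of these sums, and the other 9 summed to 35.1, 27.4 and 58.9 CPM in eop055, against 3.88, 4.35 and 5.07 CPM in pep1-1, with SEP1, SEP3 and REM22 at 0 counts in pep1-1. In bulk tissue more cells of a type and more RNA per cell cannot be told apart. The part of floral tissue in the differences of other genes below was not tested.

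The B-class genes AP3 and PI, which specify petals and stamens, were detected in every eop055 library. PI had 3.84, 2.51 and 7.82 CPM in eop055, against 0.0636, 0 and 0 CPM in pep1-1. It had 216 reads in eop055 and 1 in pep1-1, or 174 to 1 after scaling (95% interval for counting error 31.0 to 6920), and the bound was 33.6-fold once pep1-1 replicate 1 was dropped. AP3 had 1.99, 1.28 and 5.32 CPM in eop055, against 0.191, 0.198 and 0 CPM in pep1-1, 19.9-fold higher (adjusted p 0.000284) and 11.3-fold without eop055 replicate 3.

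Of the SEP genes, cofactors needed for all floral organs, SEP4 had 4.87, 2.38 and 8.28 CPM in eop055, against 0, 0 and 0.175 CPM in pep1-1. Scaled for library size the reads stood 95.3 to 1 (95% interval 26.1 to 791), 55.1 to 1 with pep1-1 replicate 1 dropped and at least 44.0 to 1 with pep1-1 replicate 3 dropped. SEP1 had 1.24, 0.734 and 3.88 CPM in eop055 and 0 reads in pep1-1. Set against the 3 counts per group that 0 reads allow, it was at least 24.0-fold higher, a bound that became 12 and 13.8 when eop055 replicate 3 or pep1-1 replicate 1 was dropped. SEP3 was too low to be tested, with 0.549, 0.306 and 1.77 CPM in eop055 and 0 reads in pep1-1. Its bound was 10.8-fold higher, and 5.22 or 6.22 when the same libraries were dropped. AGL6, a relative of the SEP genes, was nearly even within each group, with 9.47, 8.62 and 9.73 CPM in the eop055 libraries, against 0.318, 0.396 and 0.350 CPM in the pep1-1 libraries (25.8-fold, adjusted p 5.82e-09). REM22, of a family of DNA-binding proteins of reproductive meristems, had 3.98, 3.12 and 9.53 CPM in eop055 and 0 reads in pep1-1. It was at least 68.4-fold higher, and the bound was 43.8 or 39.5 with eop055 replicate 3 or pep1-1 replicate 1 dropped. The intervals take in counting error alone. The bounds set the observed eop055 reads against 3 counts in pep1-1 and take in no counting error of the eop055 reads. Neither takes in the spread between libraries.

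CRC and SPL8, unlike the genes above, had a clear level in pep1-1 as well. CRC, which acts in carpels and nectaries, had 7.82, 6.66 and 10.6 CPM in eop055, against 2.29, 2.28 and 3.59 CPM in pep1-1 (log2 1.62 ± 0.25 SE, adjusted p 0.000109). SPL8 (Aa_G106150h1), an SPL gene outside the control of miR156 that acts in anthers and the gynoecium, had 61.8, 63.3 and 65.3 CPM in eop055, against 12.1, 12.4 and 8.92 CPM in pep1-1 (5.69-fold, adjusted p 3e-12). Both groups were tight, and this was the smallest adjusted p among the flowering and floral organ genes.

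Within eop055 the flowering and floral organ genes varied together between libraries. In 16 of the 16 called genes of the 2 lists replicate 3 was the highest eop055 library, and in 12 replicate 2 was the lowest. Over all 1524 genes called higher, replicate 3 was highest in 36.6%. All 16 remained called when replicate 3 was left out, and the 8 and 8 calls of the 2 lists were also kept without any other single library.

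**Figure D2:**
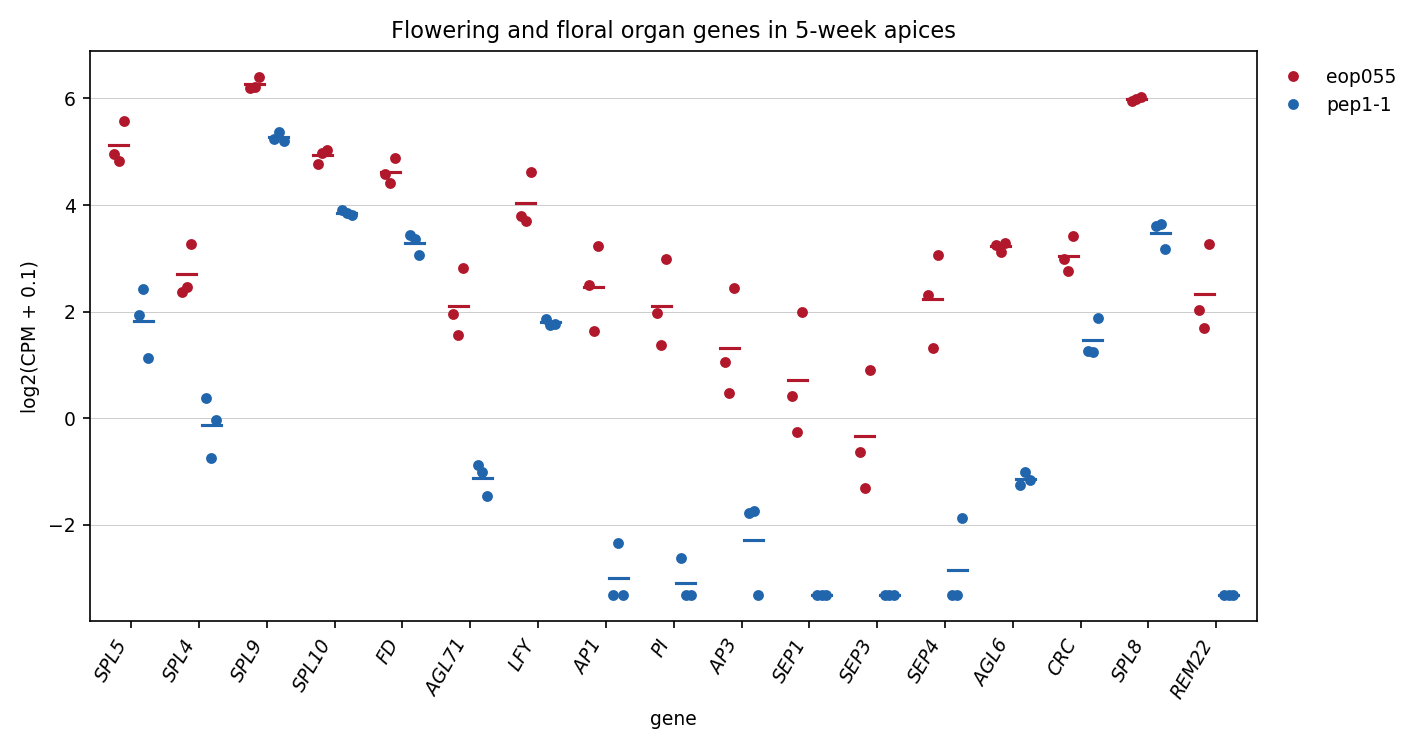
Level of flowering and floral organ genes in each 5-week apex library on a log2(CPM + 0.1) scale, with replicates 1 to 3 from left to right, eop055 in red and pep1-1 in blue; the short lines are means of the 3 plotted log2 values. Points at the lower edge are libraries with 0 counts, as for SEP1, SEP3 and REM22 in pep1-1, and eop055 replicate 3 is the highest red point for each called gene.

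The flowering and floral organ genes were then set beside the younger apices. The genotype effect at 5 weeks was tested against that at 3 weeks in the same fit, and 2265 of 21275 genes (10.6%) passed, 955 with a higher log2 fold change at 5 weeks (4.49%) and 1310 with a lower one (6.16%). Among named genes these shares were 13.7% and 14.3%. Of the flowering list 6 of 8 and of the floral organ list 4 of 9 had a higher fold change at 5 weeks. LFY had a log2 fold change of 2.32 ± 0.25 at 5 weeks, against -0.74 ± 0.27 (SE, not called) at 3 weeks, a difference of 3.07 ± 0.37 (adjusted p 2.96e-05). SPL8 had 19.3 to 20.4 CPM in eop055 and 19.4 to 20.2 CPM in pep1-1 at 3 weeks, so the genotypes overlapped there, and its difference of fold changes was 2.52 ± 0.17 (SE, adjusted p 3.82e-09). Thus LFY and SPL8 had no call at the younger age. SPL9, SPL10, FD, SPL5 and AGL71 also passed, with differences of 0.85, 1.09, 0.87, 1.71 and 3.75, as did CRC, SEP4 and PI (1.74, 6.43 and 7.32, the last 2 fitted from levels near 0). SPL5 was already called higher at 3 weeks (log2 1.57 ± 0.37 SE, adjusted p 0.0182). For SPL4, AP1, AP3, SEP1, AGL6, NGA1 and REM22 the difference did not pass, and AP1, AP3, SEP1, AGL6 and REM22 stood under 0.5 CPM in every 3-week library.

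A second test set the apex effect against that of leaves at 5 weeks, where 4273 genes passed (20.1%), 1948 with a higher fold change in apices (9.16%) and 2325 with a lower one (10.9%). Among named genes these shares were 13% and 42.4%. Of the named genes tested, 793 are on the authors' deposited list of rises in eop055 leaves and 105 on that of falls. The split over all genes turned with the scaling, to 3317 higher and 1784 lower in apices under upper quartile scaling, which moved the median difference over all genes to 0.13 on the log2 scale, beside 0.02. Under that scaling 14.4% and 41.3% of named genes passed, and the counts of the flowering, floral organ and floral repression lists given next were the same. Of the flowering list 4 of 8 passed as higher in apices, namely SPL4, SPL5, SPL9 and SPL10. Of the floral organ list AP3, SEP1 and SEP4 did. LFY, AP1 and CRC had 0 counts in all 6 leaf libraries, where this test gives no usable value. TEM1 and TEM2, not called in apices, had fold changes lower in apices than in leaves by 2.58 ± 0.35 and 2.81 ± 0.63 on the log2 scale (SE, adjusted p 0.000146 and 0.00776).

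Genes of meristem and organ polarity moved both ways. All 3 named members were called, beside 19.6% higher and 15.6% lower among named genes. Each was named through the lists for these libraries. The small leucine-zipper genes ZPR1 and ZPR2, whose products hold back HD-ZIP III factors, fell. ZPR2 (Aa_G48790h1) had 18, 14.1 and 19.6 CPM in eop055, against 42.8, 44.5 and 45.1 CPM in pep1-1, and ZPR1 had 2.81, 3.30 and 2.69 CPM in eop055, against 9.22, 8.71 and 8.92 CPM in pep1-1. FAF2, of a plant gene family that limits the size of the shoot meristem, had 21.3, 19.8 and 17.7 CPM in eop055, against 7.76, 3.76 and 6.74 CPM in pep1-1. None of the 3 overlapped between genotypes (adjusted p 4.31e-07 for ZPR2, 4.6e-06 for ZPR1 and 4.18e-05 for FAF2). FAF4, of the same family as FAF2, is outside the list and was named after its values were seen. It was called lower in eop055 (log2 -1.49 in the authors' deposited table), so the FAF genes went both ways. ZPR2 had gone the other way at 3 weeks, when it was higher in eop055 (log2 0.84 ± 0.16 SE, adjusted p 0.0037).

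Among cytokinin genes, LOG5 (Aa_G118880h1), which encodes an enzyme that releases active cytokinin, had 15.7, 14.0 and 17.3 CPM in eop055, against 2.42, 2.08 and 1.75 CPM in pep1-1 (7.40-fold, adjusted p 1.42e-08). ARR5, a type-A response regulator induced by cytokinin, fell to 13.0, 9.72 and 8.94 CPM in eop055, against 21.8, 22.6 and 18.3 CPM in pep1-1. AHP3, a phosphotransfer protein of the same signalling chain, had 3.50, 5.07 and 3.09 CPM in eop055, against 18.1, 12.9 and 21.6 CPM in pep1-1 (4.50-fold lower, adjusted p 1.54e-08). LOG6, of the same enzyme family as LOG5 and named after its values were seen, had 1.51, 1.35 and 0.657 CPM in eop055, against 1.78, 4.16 and 3.24 CPM in pep1-1 (log2 -1.33 ± 0.34 SE, adjusted p 0.0091). It was not called without eop055 replicate 3 or pep1-1 replicate 2 (0.0534 and 0.0688). The LOG genes thus went both ways, and only LOG5 and ARR5 are tested members of the cytokinin list. LOG5 was without counts in all leaf libraries.

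In the auxin list 3 of 7 tested members rose (19.6% of named genes did), all 3 on the lists for these libraries, and the 4 named through other lists were not called. PILS3, a carrier at the endoplasmic reticulum, had 31.0, 27.3 and 24.6 CPM in eop055, against 3.63, 3.76 and 3.24 CPM in pep1-1 (7.78-fold, adjusted p 1.42e-11). GH3.2 and GH3.3, which conjugate auxin to amino acids, rose as well, with log2 fold changes of 1.11 ± 0.17 and 1.05 ± 0.15 (SE). GH3.3 had 26.2, 27.3 and 28.3 CPM in eop055, against 11.4, 15.2 and 13.2 CPM in pep1-1. SAUR27 and SAUR36, of a family of auxin-responsive genes, are outside the list and were named after their values were seen. They were called lower (log2 -0.98 ± 0.32 and -2.70 ± 0.62 SE), and the other 6 of 8 tested SAUR genes were not called. In the gibberellin list GA3OX1, the enzyme of the last step to active gibberellin, fell to 17.2, 16.6 and 14.4 CPM in eop055, against 40.8, 29.2 and 39.5 CPM in pep1-1, and the other 3 tested members, of gibberellin synthesis and breakdown, did not pass. GASA14, of a gibberellin-regulated gene family, had 69.5, 79.8 and 56.8 CPM in eop055, against 146, 171 and 166 CPM in pep1-1 (2.34-fold lower, adjusted p 0.000757).

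Flavonol genes were higher. Of the flavonoid list 4 of 4 tested members rose, all 4 named through the lists for these libraries (background 7.16% of all genes tested and 19.6% of named genes), with a median log2 fold change of 1.62. They are the flavonol regulators MYB11 and MYB111, the synthase FLS1 and the glucosyltransferase UGT78D2. FLS1 (Aa_G521430h1) had 69.3, 66.2 and 48.8 CPM in eop055, against 23.8, 19.2 and 22.0 CPM in pep1-1 (2.82-fold, adjusted p 7.38e-06). UGT78D2 had 29.7, 29.6 and 23.2 CPM in eop055, against 10.6, 11.4 and 11.2 CPM in pep1-1. MYB111 had 3.36, 2.93 and 2.96 CPM in eop055, against 0.445, 0.693 and 1.22 CPM in pep1-1. MYB11 had 1.44, 2.26 and 2.04 CPM in eop055, against 0.445, 0.693 and 0.612 CPM in pep1-1. The groups did not overlap for any of the 4, and for all 4 the fold change was higher at 5 than at 3 weeks by the test of the difference. The sinapate glucosyltransferase UGT84A2 had 42.5, 38.2 and 32.7 CPM in eop055, against 8.14, 8.31 and 6.91 CPM in pep1-1 (4.84-fold, adjusted p 2.82e-09). Its relatives UGT84A1 and UGT84A3, named after their values were seen, gave log2 fold changes of 2.04 ± 0.29 and 1.02 ± 0.20 (SE, adjusted p 2.37e-05 and 0.000813). Other phenylpropanoid genes, of which PAL4, MYB63 and UGT72E2 were also named after their values were seen, went both ways. PAL4, of the enzyme family that opens the pathway, fell by 1.19 ± 0.12 on the log2 scale. The lignin regulator MYB63 fell by 1.26 ± 0.30 (SE, adjusted p 4.31e-07 and 0.00557). The glucosyltransferase UGT72E2 rose, with 0.961, 1.16 and 1.64 CPM in eop055, against 0.0636, 0 and 0.175 CPM in pep1-1 (adjusted p 0.000794). CAD9 was called higher too (log2 1.18 in the authors' deposited table).

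Aliphatic glucosinolate genes, which make sulphur-rich defence compounds from methionine, were lower. Of 9 tested members 5 fell and none rose (background 7.3% lower among all genes tested and 15.6% among named genes), with a median log2 fold change of -1.13. Of the 9, 6 are on the lists for these libraries, and the 3 named through other lists were not called. The regulator MYB28 (Aa_G606850h1) had 9.13, 6.24 and 11.8 CPM in eop055, against 44.0, 48.1 and 58.0 CPM in pep1-1 (5.52-fold lower, adjusted p 3.62e-06). Its partner MYB29 had 0.137, 0.245 and 0.329 CPM in eop055, against 2.04, 2.18 and 2.80 CPM in pep1-1. The enzymes that fell were IMD1 of methionine chain elongation, the glucosyltransferase UGT74C1 and the sulphotransferase SOT18. SOT18 had 23.7, 24.7 and 22.3 CPM in eop055, against 44.5, 45.2 and 84.9 CPM in pep1-1. UGT74C1 was not called without eop055 replicate 2 or 3 or pep1-1 replicate 3 (adjusted p 0.0518, 0.0598 and 0.0674). For MYB28, MYB29, IMD1, UGT74C1 and SOT18 alike pep1-1 replicate 3 was the highest pep1-1 library, which held for 34.7% of all genes called lower. With that library dropped 4 of the list were called, and with only the 2 groups in the fit 3 were.

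The members that were not called differed between ages too: for 9 of 9 members the fold change was lower at 5 than at 3 weeks (6.16% of all genes tested and 14.3% of named genes), and for 8 of 9 it was lower in apices than in leaves (10.9% and 42.4%). MYB28 differed by -2.82 ± 0.30 on the log2 scale between ages and by -2.58 ± 0.29 between apices and leaves (SE, adjusted p 4.04e-05 and 4.9e-05). In leaves MYB28 stood at 48.0 to 76.0 CPM in eop055 and 49.2 to 60.5 CPM in pep1-1, so the genotypes overlapped there. Genes next to this pathway went both ways. The sulphur assimilation genes APR3 and OASA2, named after their values were seen, were called higher (log2 1.1 and 2.23 in the authors' deposited table). Those that follow were lower. IPMI1 and IPMI2, small subunits of the isomerase of the same chain elongation, had 1.04 to 2.13 and 1.05 to 2.69 CPM in eop055, against 4.33 to 11.9 and 4.16 to 9.27 CPM in pep1-1. IPMI1 was 4.28-fold lower, 2.80-fold without pep1-1 replicate 3, and was not called without eop055 replicate 2 (adjusted p 0.0589). AK3, an aspartate kinase of the pathway that supplies methionine, had 3.16, 2.02 and 2.23 CPM in eop055, against 13.0, 12.7 and 30.9 CPM in pep1-1 (7.60-fold lower, adjusted p 0.00018). CYP79A2, which opens the branch from phenylalanine, had 12.6, 9.05 and 9.40 CPM in eop055, against 31.9, 30.2 and 59.8 CPM in pep1-1. Of 5 tested genes of the indole branch and shared steps edgeR called 0, with 2 at an unadjusted p under 0.05, DESeq2 called 1 lower, and with only the 2 groups in the fit 1 was called higher and 1 lower.

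Of 13 tested genes of sugar signalling 2 were called higher and 6 lower, beside 19.6% and 15.6% of named genes. The 8 called are the 8 on the lists for these libraries. Trehalose-6-phosphate phosphatases, which remove the sugar signal trehalose-6-phosphate, differed in direction. TPPF (Aa_G522440h1) had 1.58, 1.35 and 1.25 CPM in eop055, against 7.25, 8.81 and 5.77 CPM in pep1-1 (5.20-fold lower, adjusted p 1.06e-06), and TPPB and TPPH fell by 1.78 ± 0.37 and 1.12 ± 0.21 on the log2 scale (SE). TPPG and TPPI, called too but outside the largest 6 of the list and so named after their values were seen, gave log2 fold changes of 1.05 ± 0.22 and 1.03 ± 0.25, and TPPA was not called (-0.13 ± 0.22). The starvation and dormancy markers DIN10 and DRM1 were lower. DIN10, induced in darkness, had 7.41, 11.1 and 14.4 CPM in eop055, against 51.6, 66.6 and 56.9 CPM in pep1-1 (5.29-fold lower, adjusted p 0.00136). DRM1 had 36.1, 35.0 and 41.5 CPM in eop055, against 94.6, 91.6 and 87.0 CPM in pep1-1. BT2, a scaffold protein regulated by sugar and nitrate, fell by 1.73 ± 0.33 on the log2 scale (SE), a call not made when only the 2 groups were fitted.

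The abscisic acid and cold list moved both ways, with 3 of 11 tested members higher and 3 lower, not far from the named-gene shares of 19.6% and 15.6%. HAI1 (Aa_G345470h1), a phosphatase induced by the hormone, had 13.3, 16.1 and 20.0 CPM in eop055, against 2.74, 3.86 and 2.27 CPM in pep1-1 (5.62-fold, adjusted p 1.32e-07). The abscisic acid hydroxylases, which inactivate the hormone, did not move as one. CYP707A1 fell to 10.4, 7.95 and 6.51 CPM in eop055, against 19.8, 22.3 and 17.5 CPM in pep1-1, and CYP707A4 fell by 1.15 ± 0.22 on the log2 scale (SE). CYP707A2 had 25 reads in eop055 and 0 in pep1-1, at least 6.73-fold higher by the same bound (3.89 with pep1-1 replicate 1 dropped), and CYP707A3 was not called (log2 -1.54 ± 1.81). RAB18, a dehydrin, rose and RD29A, a drought and cold gene, fell, by 1.42 ± 0.44 and 0.64 ± 0.12 on the log2 scale (SE). Of the 6 fits lacking 1 library RAB18 was called in 1, that without eop055 replicate 3 (adjusted p 0.0594 to 0.102 in the other 5).

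**Figure D3:**
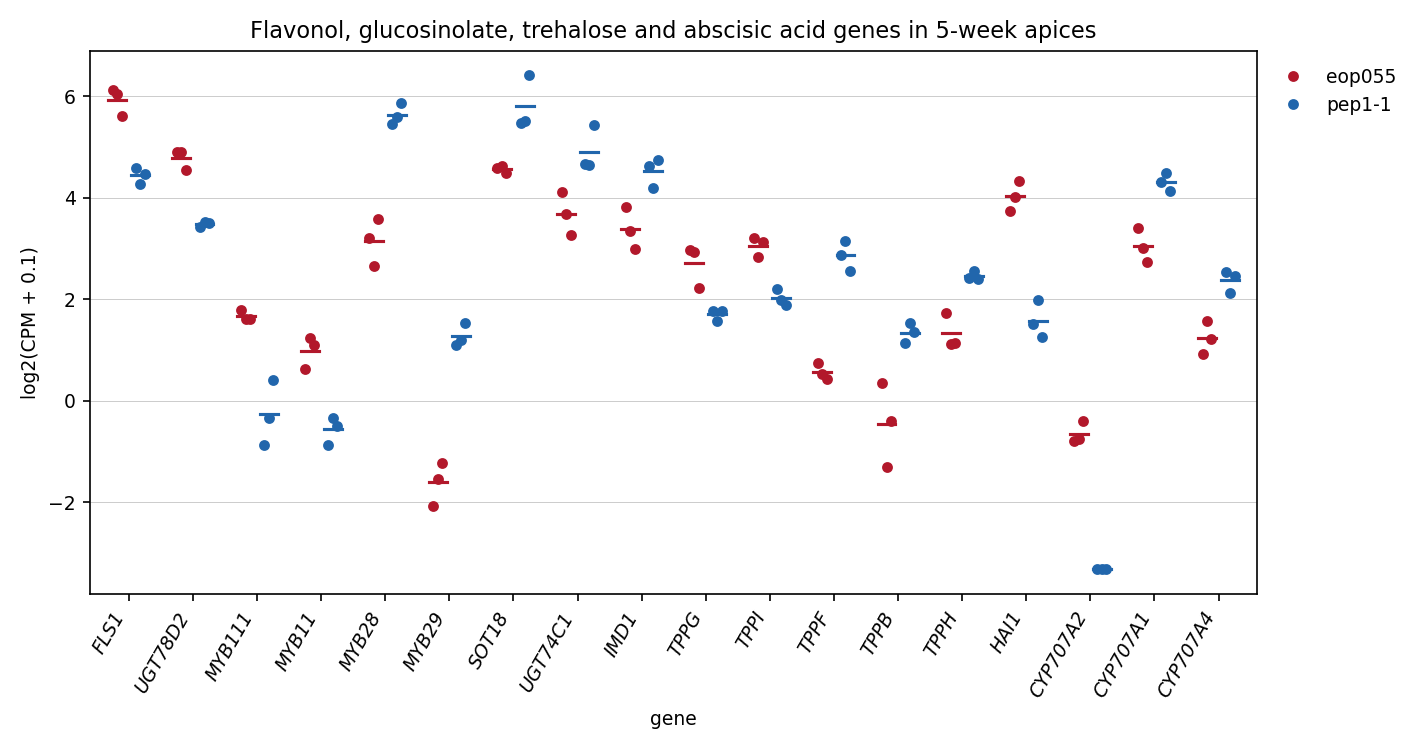
Level in each 5-week apex library on a log2(CPM + 0.1) scale of flavonol genes (FLS1 to MYB11), aliphatic glucosinolate genes (MYB28 to IMD1), trehalose-6-phosphate phosphatases (TPPG to TPPH) and abscisic acid genes (HAI1 to CYP707A4), with replicates 1 to 3 from left to right and means of the plotted log2 values as short lines, eop055 in red and pep1-1 in blue. The flavonol genes are higher and the glucosinolate genes lower in eop055, and the trehalose and abscisic acid genes go both ways.

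In the clock list 2 of 9 tested members rose and 1 fell, shares near the 19.6% and 15.6% of named genes. The morning gene CCA1 had 4.32, 3.42 and 4.80 CPM in eop055, against 1.97, 2.57 and 1.92 CPM in pep1-1 (1.95-fold, adjusted p 0.00189). LHY, its partner, rose by 0.42 ± 0.13 and the evening regulator PRR5 fell by 0.60 ± 0.15 on the log2 scale (SE). LHY was not called in 5 of the 6 fits lacking 1 library (all but that without eop055 replicate 3, adjusted p 0.0586 to 0.174) and PRR5 not without pep1-1 replicate 3 (0.0626). The sources used here do not give the time of day of sampling.

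In the jasmonate list an enzyme of synthesis rose and a pair of regulators fell. LOX2 (Aa_G49590h1), a chloroplast lipoxygenase, had 56.5, 49.1 and 31.6 CPM in eop055, against 2.16, 4.16 and 2.45 CPM in pep1-1 (16.2-fold, adjusted p 1.61e-05). The regulators MYC2 and JAZ9 fell, by 1.14 ± 0.35 and 1.03 ± 0.24 on the log2 scale (SE), and 7 of the 10 tested members were not called. Among named genes 19.6% were called higher and 15.6% lower. MYC2 was called in 1 of the 6 fits lacking 1 library, that without pep1-1 replicate 1 (adjusted p 0.0671 to 0.154 in the other 5), and JAZ9 was not called without eop055 replicate 2 (0.0531). At 3 weeks LOX2 stood at 31.3 to 45.1 CPM in eop055 and 17 to 33.2 CPM in pep1-1, and was not called, so the 5-week pep1-1 libraries lay below the younger ones of the same genotype. In leaves it stood at 1376 to 1943 CPM in eop055 and 1514 to 1973 CPM in pep1-1, which overlapped. The fold change was higher at 5 than at 3 weeks by 3.33 ± 0.50 and higher in apices than in leaves by 4.09 ± 0.47 on the log2 scale (SE, adjusted p 0.000935 and 9.25e-05).

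Of 12 tested genes of salicylic acid and immunity 1 fell, WRKY54, and none rose. Beside this, 7.3% of all genes tested and 15.6% of named genes were called lower. DESeq2 called 4 of the 12 lower, and 5 were lower with only the 2 groups in the fit. WRKY54 had 5.01, 4.28 and 4.93 CPM in eop055, against 12.7, 14.4 and 8.75 CPM in pep1-1. The pathogenesis-related genes PR1 and PR2 had 0 counts in all 6 apex libraries. For 6 of the 12 the fold change was lower in apices than in leaves, a share near the 42.4% of named genes. PAD4 was among them, with 18.1 to 19.1 CPM in eop055 and 23.7 to 26.5 CPM in pep1-1. HSP90.1, the only named heat shock gene, rose by 1.13 ± 0.32 on the log2 scale (SE), a call lost without eop055 replicate 2 or 3 or pep1-1 replicate 2 or 3 (adjusted p 0.0561 to 0.0661).

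**Figure D4:**
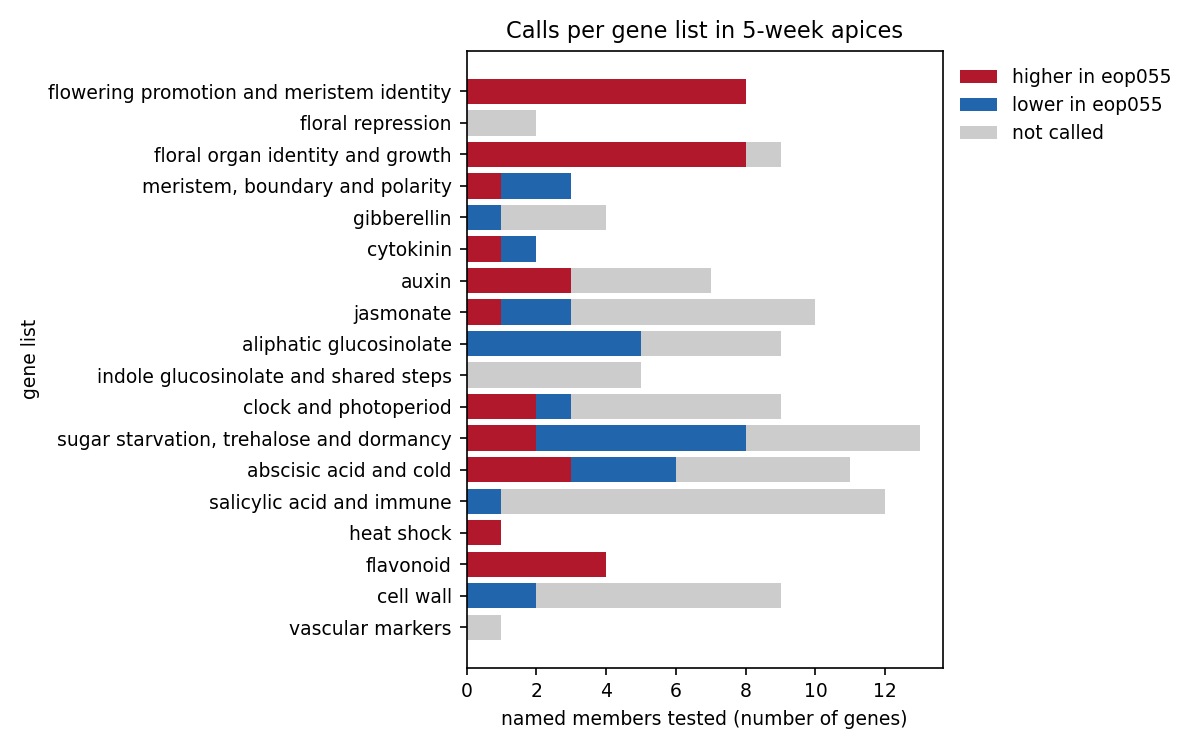
Number of named and tested members of each gene list called higher in eop055 (red), called lower (blue) or not called (grey) in 5-week apices. The calls made are all higher in the flowering, floral organ, auxin, heat shock and flavonoid lists, and all lower in the gibberellin, aliphatic glucosinolate, immune and cell wall lists. Names come from the authors' lists of changed genes, which also sets these counts.

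The calls were also set beside those of the other organ and age. Of the 1524 genes called higher, 92 were also called higher at 3 weeks (6.04% of these and 16.8% of the 548 called there) and 288 in leaves (18.9%, and 9.04% of 3187). Of the 1553 called lower, 50 were also called lower at 3 weeks (3.22%, and 21.3% of 235) and 247 in leaves (15.9%, and 9.98% of 2474). These shares depend on the number of calls in each comparison. Opposite calls numbered 33 and 123 at 3 weeks and 184 and 232 in leaves for the higher and lower genes. In the tests of the difference itself, 743 of the higher and 901 of the lower genes had a stronger effect in the same direction at 5 weeks than at 3, and 645 and 764 a stronger one than in leaves. Of the 717 genes changed at least 2-fold, 421 differed from 3 weeks, 354 from leaves and 258 from both. Over all genes tested 10.6% differed from 3 weeks and 20.1% from leaves. Both tests contain the 5-week apex effect by which these genes were picked. That choice alone favours larger counts and the same direction, so the counts are a description only.

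**Figure D5:**
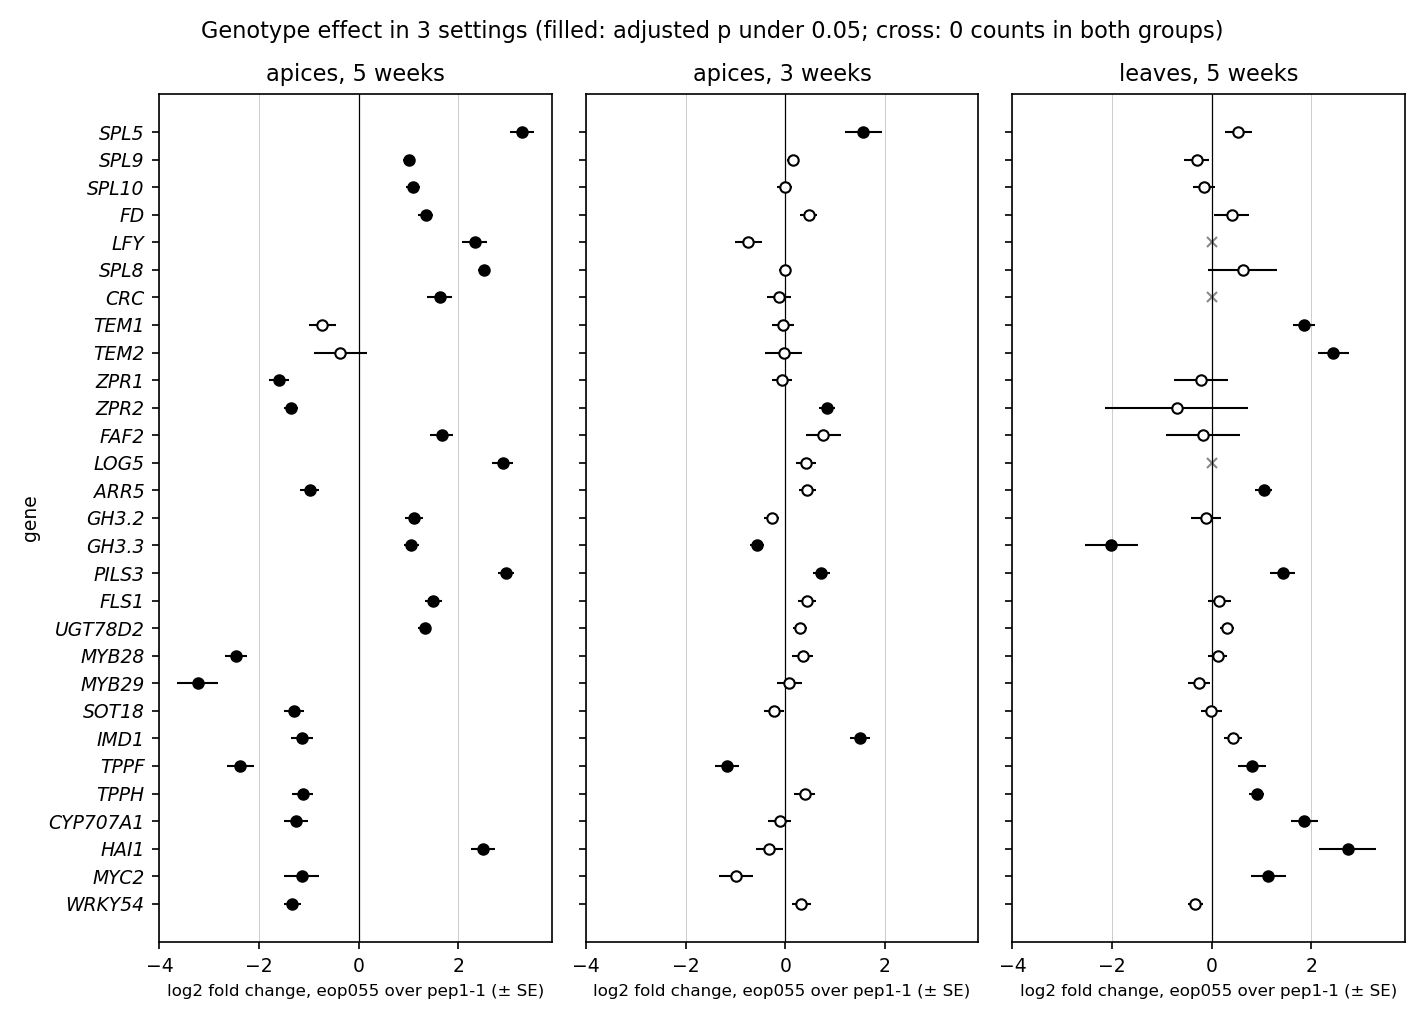
Log2 fold change of eop055 over pep1-1 with its standard error for genes of the lists in 5-week apices (left), 3-week apices (middle) and leaves (right). Filled points passed an adjusted p of 0.05, open points did not, and a cross marks genes with 0 counts in both groups, such as LFY in leaves. SPL8 (2.51) and MYB28 (-2.47) are filled and far from 0 at the left, and both are open in the other panels.

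The authors' deposited table lists 298 genes as higher and 274 as lower in eop055 apices at 5 weeks. Of these 291 (97.7%) and 248 (90.5%) were also called here, which is 19.1% of the 1524 and 16.0% of the 1553 calls. The deposited lists hold no gene under a 2-fold change, and of the 385 and 332 calls with at least that change 288 (74.8%) and 243 (73.2%) are on them. Among named genes that averaged at least 5 CPM in the higher group, the largest fall was that of AT5G28885, with 0, 0.489 and 0 CPM in eop055, against 9.22, 8.61 and 10.7 CPM in pep1-1. All of its 8 reads in eop055 came from replicate 2, and it was 52.1-fold lower with that library in the fit. It was called lower in eop055 in 3-week apices and in leaves as well. Among genes with no Arabidopsis name the largest changes under the same limits were rises of Aa_G862480h1, with 5.35, 4.40 and 6.11 CPM in eop055 and 0.318, 0 and 0.612 CPM in pep1-1, and of Aa_G52330h1, with 23.5, 22.8 and 15.0 CPM in eop055 and 2.99, 3.07 and 3.41 CPM in pep1-1. Aa_G862480h1 was 16.0-fold higher, and 26.2-fold without pep1-1 replicate 3. The largest falls were of Aa_G1970h1, 12.4-fold lower, and Aa_G433930h1, with 1.30, 1.77 and 1.12 CPM in eop055 and 12.8, 13.5 and 10.1 CPM in pep1-1. In all 4 the genotypes did not overlap, which was a condition of their choice, as it was for AT5G28885.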

How the data were processed

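Per the labels' protocols, RNA was isolated with an RNeasy kit and directional poly(A) libraries were sequenced as single reads on a HiSeq2500. The authors deposited raw read counts per gene for 18 libraries. Tools named in the submitters' processing notes are DESeq, DESeq2, HTSeq 0.5.4p1 and STAR. The sources used here do not give the genome build, annotation or strand setting, so counts of antisense, overlapping or near-identical genes are uncertain. The deposited lists of changed genes hold, per the file headers, adjusted p-values, linear fold ratios, log2 values of them and group means normalised by the authors, a signal. They served as a name dictionary and for the overlap counts, and 1399 of the 1401 genes with a locus matched 1 count row.

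The 5 summary entries entered neither library sizes nor tests. Reads outside genes made up 14.0 to 14.7% in eop055 and 13.7 to 16.6% in pep1-1 apices at 5 weeks. Counts were fitted in R 4.3.3 with edgeR 4.0.16 (TMM scaling, filterByExpr, robust glmQLFit of 6 group means over all 18 libraries, 12 residual degrees of freedom, glmQLFTest, Benjamini-Hochberg adjustment over 21275 genes), and differences of genotype effects as contrasts of that fit. SE is the log2 fold change over the square root of F. Replicate pairs of the 2 groups differed by 2.96 to 5.96 in chi-square per gene, so none was a copy. Pairs of eop055 leaf libraries differed more, by 9.21 to 26.2, and those of the remaining groups by 1.51 to 4.31. The eop055 leaf libraries enter the spread per gene and the test against leaves. The alternative fit with only the apices leaves them out. Genes near 1 CPM rest on few reads. Fits were checked on simulated counts.

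Members and gene lists were chosen with earlier results of these data known. Named were called members of the flowering and floral lists, up to 6 of each other list, the 25 largest rises and falls with at least 5 CPM and no overlap, the 8 most abundant each way changed at least 1.5-fold and 2 unnamed IDs each way; some are summarised. Tried as alternatives were DESeq2 1.42.0, scaling by upper quartile or RLE, keeping all genes, keeping those with 50 counts in 3 libraries, only the groups compared, a replicate block, stricter thresholds, each 5-week apex library left out and, chosen after seeing the data, only the apices. Figures used matplotlib 3.10.9.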

Additional observations from a re-analysis of the deposited data

Results flagged for a closer look

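The genotype effect in 5-week apices differed from that in 3-week apices for 2265 genes and from that in 5-week leaves for 4273 genes, by edgeR's quasi-likelihood test of the difference with Benjamini-Hochberg adjustment. Of all named genes 22 were called in opposite directions at the 2 ages and 77 in apices and leaves. Among the 109 called genes picked by the naming rule, 4 were called in opposite directions at the 2 ages. GH3.3 rose at 5 weeks and fell at 3 weeks, a difference of 1.61 on the log2 scale. ZPR2, IMD1 and AT1G49500, a gene of unknown function, fell at 5 weeks and rose at 3 weeks, with differences of -2.20, -2.64 and -2.41.

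Between apices and leaves 14 of the 109 were called in opposite directions. Higher in eop055 apices and lower in eop055 leaves were GH3.3 (a difference of 3.06), the AMP-dependent ligase gene AT1G21540 (3.32), the lipid transfer protein gene LTP6 (1.69) and CAD9 (1.59). Lower in apices and higher in leaves were TPPF (-3.19), CYP707A1 (-3.12), the isoleucine racemase gene DAAR1 (-2.91), the blue-light receptor PHOT1 (-2.58), the purple acid phosphatase PAP8 (-2.57), AT1G49500 (-2.32), MYC2 (-2.28), ARR5 (-2.03), TPPH (-2.02) and AT3G05900 (-1.76). In apices MYC2 was called in 1 of the 6 fits lacking 1 library, and AT3G05900 was not called without eop055 replicate 3 or pep1-1 replicate 1. Groups of 3 libraries were not tested for single libraries that stand apart.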

How the results depend on the processing

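For 98 of 109 named calls each alternative that tested the gene made the same call, and 0 reversed. The others were UGT74C1, MYC2, IPMI1, LHY, BT2, RAB18, PRR5, HSP90.1, AT3G05900, JAZ9 and SOT18, with adjusted p of 0.0518 to 0.174 where lost; the cause was not tested. The count of 3077 (1524 higher, 1553 lower) was 3262 by DESeq2, and its range without 1 library was 2197 to 2832 (1006 to 1407 higher, 1187 to 1425 lower). At an adjusted p of 0.01 it was 1724 (857 higher, 867 lower), and with a 2-fold minimum 717 (385 and 332). For the difference from 3 weeks, 2265, these were 1114 (444 and 670) and 757 (296 and 461), and for that from leaves, 4273, they were 2167 (926 and 1241) and 1477 (483 and 994). Upper quartile scaling turned the split against leaves to 3317 higher and 1784 lower, beside 1948 and 2325. Scaling moved the median log2 of all genes in 5-week apices by -0.00765 at most. The replicate numbers did not pair the libraries (correlations of -0.034, -0.0071 and -0.0018), and with the replicate block 3191 genes were called, 2340 for the difference from 3 weeks and 4298 for that from leaves; MYC2 was lost. With only the 12 apex libraries in the fit, chosen after seeing the data, 3910 were called and RAB18 and LHY were lost. The filter of 50 counts left 6 and 4 of the 8 and 8 flowering and floral organ calls, because it removed the rest before testing. Depth limits genes under about 1 CPM.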

Other observations

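Genes outside the groups above also moved. The asparaginase gene ASPGB1 (Aa_G241830h1) had 49.6, 39.5 and 36.5 CPM in eop055, against 3.37, 4.65 and 3.06 CPM in pep1-1 (11.4-fold higher, adjusted p 2.82e-09), and LBD39, a nitrate-induced repressor of anthocyanin genes, had 14.6, 19.0 and 15.8 CPM in eop055, against 58.6, 80.6 and 77.6 CPM in pep1-1 (4.36-fold lower, adjusted p 0.000597, edgeR). The cuticle acyltransferase gene PEL3 had 326, 333 and 291 CPM in eop055, against 146, 135 and 124 CPM in pep1-1, and the lipid transfer protein gene LTP6 had 851, 789.7 and 823 CPM in eop055, against 434, 422.5 and 371 CPM in pep1-1. PHOT1 had 67.1, 73.9 and 70.3 CPM in eop055, against 243.5, 196 and 201 CPM in pep1-1, and RBB1, which acts in vacuole structure, was 2.86-fold lower. None of these overlapped between genotypes, which was a condition where genes were picked as the largest changes. In the cell wall list 2 of 9 tested members, the fasciclin-like arabinogalactan protein genes FLA9 and FLA12, fell by 2.42 ± 0.36 and 1.25 ± 0.21 on the log2 scale (SE), a share near the 15.6% of named genes. Outside that list and named after their values were seen, the wall genes EXPA9, XTH8 and XTH7 fell too. Their log2 fold changes were -1.69 ± 0.14, -1.27 ± 0.23 and -1.07 ± 0.15 (SE). CEL2 and PME12, also outside the list and named after their values were seen, were called higher. Their log2 values in the authors' deposited table are 1.46 and 1.37, so wall genes went both ways. Of 9 tested XTH genes 7 were not called.

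Some family members were named after their values were seen. Of 4 tested SWEET sugar transporter genes SWEET10 was higher, with 5.56, 1.53 and 3.88 CPM in eop055, against 0, 0 and 0.175 CPM in pep1-1, and SWEET12 was lower, with 16.1, 19.6 and 17.4 CPM in eop055, against 63.3, 42.3 and 52.5 CPM in pep1-1. Of 14 tested ERF genes edgeR called 1, ERF12, as higher (log2 1.79 ± 0.20 SE), while the median log2 fold change of the 14 was -1.31 and the authors' deposited table lists ERF2, ERF-1, ERF104 and ERF6 as lower.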
